A study of Triticum aestivum with 12 samples.

Results

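The on-off genes of the release pairs are 31 of the 107411 genes in the deposited table of normalized counts. They were chosen by their measured values. A gene was taken when it stood at 10 or more in all 6 libraries of one pair of varieties and at 1.3 or less in all 6 libraries of the other pair. One pair was AAC Starbuck and AAC Magnet, both released in 2018, and the other was AAC Concord and AAC Tradition, both released in 2015. Genes without a chromosome were left out, as were 6 blocks of neighbouring identifiers, on chromosomes 1B, 2A, 2B, 3D, 4A and 6B. Of the 31 genes, 11 were on in AAC Starbuck and AAC Magnet and 20 were on in AAC Concord and AAC Tradition. The rule fixes the contrast between the pairs, so that contrast is given here as a description, with no test.

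Bread wheat is a hexaploid whose A, B and D subgenomes carry related copies of most genes. The flag leaf is the last leaf below the spike and a main source of sugar for the filling grain. Cultivars of wheat are known to differ in gene content and in sequence as well as in transcription. The reads of all varieties were counted against a single reference. A value near 0 therefore says that few reads were assigned to a gene model, and absence of the gene, absence of its transcript and divergence of its sequence cannot be told apart.

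The varieties are Canadian spring wheats, with 3 flag leaf libraries each and 12 in all. Each release pair joins a variety of the Western ecozone, AAC Starbuck or AAC Concord, with one of the Eastern, AAC Magnet or AAC Tradition. Every sample is labelled as a control, with no other treatment or allele named. The labels describe field plots, with flag leaves taken from the middle of each, and the study describes plants of a greenhouse, which the values cannot settle. Each release year is represented by 2 varieties, so year and variety cannot be told apart, and p-values measure the spread between 3 libraries of a variety. The values of a library summed to between 5077330 and 5902642. A single read was worth 0.798 to 1.24 normalized counts, which gives an estimated 4484480 to 7095034 reads per library. The limit of 1.3 thus admits no more than 1 read in any library. None of the identifiers (0 matches) was found in a separate table of 155467 RefSeq genes, which uses other identifiers than the counted reference. The genes therefore carry identifiers only, with no name, role or sequence, and no leaf marker could be looked up.

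**Figure D1:**
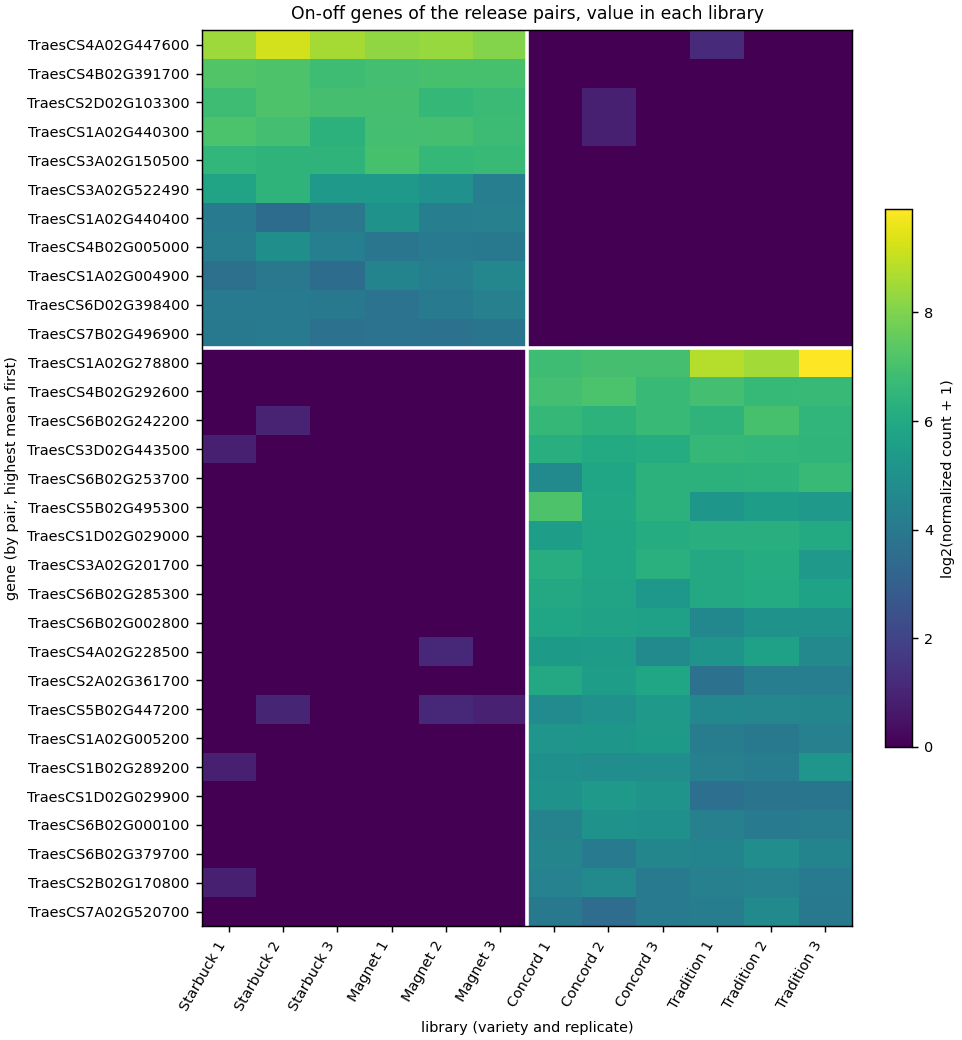
Value of each of the 31 on-off genes (rows) in each of the 12 libraries (columns), as log2(normalized count + 1). The white lines part the 11 genes on in AAC Starbuck and AAC Magnet from the 20 on in AAC Concord and AAC Tradition, and the libraries of the pairs. Of 186 values in the off pairs, 175 are at 0.

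In the pair where they were off, the genes were almost without reads. Of the 31 genes, 22 were at 0 in all 6 libraries of the off pair, 8 had 1 read there and 1 had more. The 186 off values together held 11 reads. Of these, 5 were in AAC Starbuck libraries, 3 in AAC Magnet, 2 in AAC Concord and 1 in AAC Tradition. The gene with the most was TraesCS5B02G447200, with 3 reads in the off pair, at 1.04 in replicate 2 of AAC Starbuck and at 1.19 and 0.889 in replicates 2 and 3 of AAC Magnet. In AAC Concord and AAC Tradition the same gene ran from 22.1 to 39.9 normalized counts, with a median of 24.9. Its ratio of means was 53.2, with an exact 95% interval of 17.9 to 260 on estimated reads, for counting error only. For the 22 genes with no read, the fold was bounded by taking 3 reads over the 6 off libraries together as the limit. These bounds ran from at least 26.8-fold for TraesCS7B02G496900 to at least 733-fold for TraesCS1A02G278800, and they follow from the levels in the on pair. PCR duplicates cannot be seen in these values, so bounds and intervals cover counting error alone.

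The 11 genes on in AAC Starbuck and AAC Magnet differed widely in level. Their means over the 6 libraries ran from 13.4 to 370 normalized counts, with a median of 44.7. TraesCS4A02G447600 was the highest. It had 349, 601 and 378 in AAC Starbuck and 303, 328 and 263 in AAC Magnet, against 1.25 in replicate 1 of AAC Tradition and 0 in the other 5 off libraries. Replicate 2 of AAC Starbuck was the highest of these libraries, and the values of the varieties did not overlap.

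TraesCS4B02G391700, TraesCS2D02G103300, TraesCS1A02G440300 and TraesCS3A02G150500 formed a group of closely spaced levels. TraesCS4B02G391700 lay between 113 and 146 with a median of 128, and its highest library was 1.29 times its lowest, the narrowest range of the 31 genes. TraesCS2D02G103300 lay between 95.5 and 140 with a median of 118. TraesCS1A02G440300 lay between 80.6 and 136 with a median of 121. TraesCS3A02G150500 lay between 86.1 and 127 with a median of 93.8 and had no read in the off pair. In each of these 4 genes the libraries of AAC Starbuck and AAC Magnet were on the same level within a factor of 1.69.

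The others were lower. TraesCS3A02G522490 spread the most of the 11, with 54.3, 85.1 and 39.9 in AAC Starbuck and 39.8, 31.0 and 17.8 in AAC Magnet. TraesCS1A02G440400 had a median of 16.8 (10.4 to 32.5), TraesCS4B02G005000 of 16.4 (13.6 to 29.1), TraesCS1A02G004900 of 16.2 (10.4 to 23.1), TraesCS6D02G398400 of 15.5 (12.6 to 18.7) and TraesCS7B02G496900 of 12.9 (11.9 to 15.5). These 5 genes had means under 20 and lay close to the limit of 10. TraesCS7B02G496900, the lowest, still held 85 reads over its 6 on libraries and none in the off pair.

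The 20 genes on in AAC Concord and AAC Tradition had means from 16.3 to 354 normalized counts, with a median of 38.7. Over all genes tested that averaged 10 or more, the median was 52.9 in these 6 libraries and 52.3 in those of the other pair, both above the medians of the on-off genes. TraesCS1A02G278800 was the highest, with 112, 124 and 126 in AAC Concord and 440, 370 and 952 in AAC Tradition, and it was at 0 in all 6 off libraries. Its highest library, replicate 3 of AAC Tradition, was 8.52 times its lowest, the widest range of the 31 genes. TraesCS4B02G292600 followed at 99.3 to 135 (median 113) and was also at 0 in all off libraries. Its 6 on libraries stayed within a factor of 1.36.

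TraesCS6B02G242200 ran from 82.7 to 127 with a median of 93.4, and had a single read in the off pair, in replicate 2 of AAC Starbuck. TraesCS3D02G443500 ran from 64.4 to 95.4 with a median of 81.2, and had a single read in replicate 1 of AAC Starbuck. The next 4 by mean were at 0 in every off library. TraesCS6B02G253700 had 25.2, 56.6 and 80.9 in AAC Concord and 80.1, 83.9 and 100 in AAC Tradition, so that replicate 1 of AAC Concord stood below the rest. TraesCS5B02G495300 had 140, 59.4 and 81.7 in AAC Concord and 37.2, 45.7 and 39.8 in AAC Tradition. TraesCS1D02G029000 ran from 45.1 to 75.6 and TraesCS3A02G201700 from 38.7 to 77.2, with medians of 67.2 and 65.3. TraesCS6B02G285300 followed with a median of 57.3 (38.2 to 66.5) and TraesCS6B02G002800 with a median of 41.5 (23.6 to 57.2), again with no read in the off pair. The other 10 genes had means of 16.3 to 36.2, and 2 of them, TraesCS2B02G170800 and TraesCS7A02G520700, were under 20.

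Some genes missed the limits by little. TraesCS1A02G440400 and TraesCS1A02G004900 were just inside the lower limit in AAC Starbuck and AAC Magnet, each with a lowest value of 10.4. TraesCS5A02G533800 and TraesCS6A02G413800, at 0 in all of AAC Concord and AAC Tradition, were just outside it with lowest values of 9.81 and 9.51. On the other side, TraesCS7A02G520700 and TraesCS1D02G029900 were just inside at 10.6 and 11.2, and TraesCS3D02G288300 and TraesCS2B02G086300 just outside at 9.76 and 9.38. The upper limit left out TraesCS2B02G133400 and TraesCS3A02G522300, whose highest off values were 1.78 and 2.21. It also left out TraesCS1D02G000500 and TraesCS1A02G270900, at 1.67 and 2.08. The highest off values inside it were 1.25 in TraesCS4A02G447600 and 0.824 in TraesCS2D02G103300, and 1.19 in both TraesCS4A02G228500 and TraesCS5B02G447200.

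Whether the varieties of a pair expressed their shared genes at the same level is a contrast the rule did not set. For that contrast limma was fitted to log2(normalized count + 1), jointly for all 12 libraries and the 44026 genes with 10 or more in at least 3 libraries. All 31 on-off genes passed this filter through the pair in which they were on. A gene was called at an adjusted p under 0.05 (Benjamini-Hochberg over all genes tested) with a log2 fold change over 1 or under -1.

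Between AAC Starbuck and AAC Magnet, 0 of the 11 shared genes were called by limma, beside 6.11% of all genes tested. Among so few genes, 0 calls cannot be told apart from that share. The rule kept only genes at 10 or more in both varieties, so genes off in either were not among the 11. Without adjustment, 4 of the 11 had p under 0.05 in the same fit, beside 21.4% of all genes tested, and no other tool was run. The log2 fold changes ran from -0.73 to 1.00, and 7 of the 11 lay within 0.5 of 0. The median size of the change was 0.29, against 0.27 over all genes tested. TraesCS1A02G004900 had an adjusted p of 0.014 (limma), with 11.5, 14.5 and 10.4 in AAC Starbuck and 20.9, 17.9 and 23.1 in AAC Magnet. Its log2 fold change of -0.73 (standard error 0.15) did not reach the limit, and it was the 1 gene of 11 under an adjusted p of 0.05, a share to be read beside 8.08% of all genes tested. TraesCS3A02G522490 had the largest difference, with 59.8 ± 23.1 in AAC Starbuck and 29.5 ± 11.1 in AAC Magnet (SD, n = 3), a log2 fold change of 1.00 (standard error 0.30) and limma's adjusted p of 0.070. It was called without replicate 3 of AAC Starbuck (adjusted p = 0.043) and without replicate 1 of AAC Magnet (adjusted p = 0.047). In 6 of the 11 genes the 3 and 3 libraries did not overlap, which was the case in 26.8% of all genes tested.

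**Figure D2:**
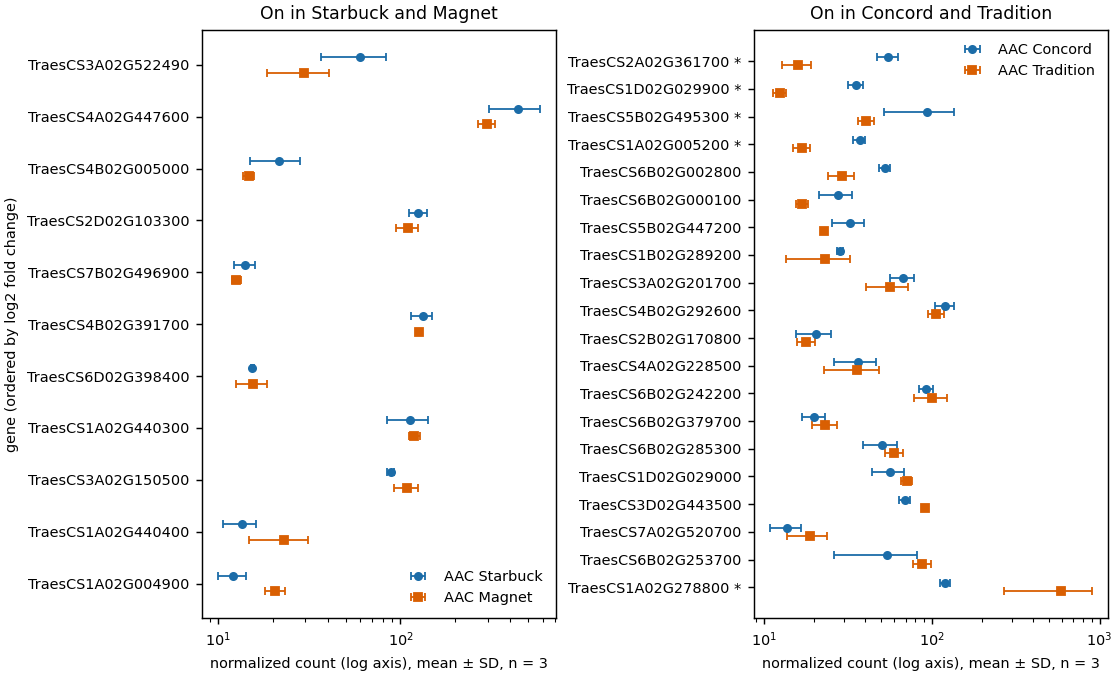
Level of each on-off gene in the varieties of the pair where it was on, as the mean ± SD of 3 libraries in normalized counts on a log axis. Genes are ordered by log2 fold change, and a star marks the 5 genes called by limma, all of them on in AAC Concord and AAC Tradition. AAC Concord was the higher in 4 of these and AAC Tradition in TraesCS1A02G278800.

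Between AAC Concord and AAC Tradition, 5 of the 20 shared genes were called, or 25% beside 7.05% of all genes tested. AAC Concord was higher in 4 of the 5, where 2.84% of all genes were called in that direction, and AAC Tradition in 1, where 4.21% were. TraesCS1A02G278800 was the gene higher in AAC Tradition, at 587 ± 317 against 121 ± 7.73 in AAC Concord (SD, n = 3), with a log2 fold change of -2.15 for AAC Concord minus AAC Tradition (standard error 0.28, adjusted p = 0.00052 from limma). Every library of AAC Tradition was above every library of AAC Concord, and the call held in 20 of 20 alternatives.

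TraesCS2A02G361700 had 61.9, 46.2 and 57.7 in AAC Concord and 12.4, 17.9 and 17.7 in AAC Tradition. Its log2 fold change was 1.73 (standard error 0.17, limma's adjusted p = 5.1e-05). TraesCS1D02G029900 had 32.9, 39.6 and 33.7 in AAC Concord and 11.2, 12.9 and 13.3 in AAC Tradition, a log2 fold change of 1.43 (standard error 0.13, limma's adjusted p = 3.2e-05). In both genes the varieties were well apart, and AAC Tradition stood near the limit of 10 that the rule sets.

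TraesCS1A02G005200 had 34.7, 36.3 and 40.8 in AAC Concord and 17.4, 14.9 and 18.8 in AAC Tradition, a log2 fold change of 1.09 (standard error 0.13, limma's adjusted p = 0.00030). It lost the call with a trend in limma's prior variance (adjusted p = 0.058) and, by its fold change of 0.94, with a pseudocount of 5. For TraesCS5B02G495300 the log2 fold change was also 1.09 (standard error 0.25, limma's adjusted p = 0.019). Its call rested on single libraries. It was lost without replicate 1 of AAC Concord, where the log2 fold change was 0.76, and without replicate 1 or 3 of AAC Tradition, where the adjusted p was 0.068 and 0.055. With the trend its adjusted p was 0.067.

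A further pair of genes, TraesCS6B02G002800 and TraesCS6B02G000100, had adjusted p values of 0.0048 and 0.033 (limma) with log2 fold changes of 0.83 and 0.65, under the limit. Thus 7 of the 20 genes had an adjusted p under 0.05, beside 9.67% of all genes tested. Without adjustment 9 of the 20 had p under 0.05, beside 23.4% of all genes. In 9 of the 20 the libraries of AAC Concord and AAC Tradition did not overlap, beside 29% of all genes. Over the 20 genes, 12 were higher in AAC Concord and 8 in AAC Tradition, and the median size of the log2 fold change was 0.41 against 0.29 over all genes tested. TraesCS6B02G253700, at -0.83 with an adjusted p of 0.14, was called without replicate 3 of AAC Concord (log2 fold change -1.19, adjusted p = 0.029). A member had to be at 10 or more in both varieties, which limits how far the lower variety of a low gene could fall.

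The on-off genes lay on 15 of the 21 chromosomes, with a single gene on 8 of them. Chromosome 6B held the most, 6 genes, all on in AAC Concord and AAC Tradition. That single direction holds outside the left-out block of 6B. Inside the block, 4 genes met the limits as on in AAC Starbuck and AAC Magnet and 1 as on in the other pair. Chromosome 1A held 5, with 3 on in AAC Starbuck and AAC Magnet and 2 on in the other pair. The D subgenome carried 5 of the 31 genes, or 16.1%, and 33.9% of the genes tested outside the blocks. The A subgenome carried 12 genes and the B subgenome 14, or 38.7% and 45.2%, with 33.2% and 32.8% of the genes tested. These shares are descriptions of 31 genes, some of which lie beside each other.

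Positions are the order of the identifiers and carry no distance in bases. A gene place is a step of 100 in the identifier's number, and a few identifiers, such as that of TraesCS3A02G522490, fall between these steps. Taking members within 50 places of each other as a run, there were 4 runs of 2 genes, and 23 genes stood alone. TraesCS1A02G440300 and TraesCS1A02G440400 are successive identifiers, both on in AAC Starbuck and AAC Magnet, at means of 116 and 18.2. TraesCS1D02G029000 and TraesCS1D02G029900, both on in AAC Concord and AAC Tradition, are 9 places apart with 8 genes between them. The varieties of their pair differed in TraesCS1D02G029900. In TraesCS1D02G029000, AAC Concord averaged 56.5 ± 12.1 and AAC Tradition 71.5 ± 5.45 (SD, n = 3), which did not pass the test (limma's adjusted p = 0.21).

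TraesCS6B02G000100 and TraesCS6B02G002800, at the start of chromosome 6B, are 27 places apart. Of the 26 genes between them, 11 were above 0 in at least 1 library. TraesCS6B02G000200 was at 0 in all libraries of AAC Starbuck and AAC Magnet and at 0.887 to 5.77 in the other pair. TraesCS6B02G000300 was on in all 12 libraries, from 167 to 216. TraesCS6B02G002300 and TraesCS6B02G002495 were called by limma between the pairs in opposite directions. Their log2 fold changes, AAC Starbuck and AAC Magnet minus the other pair, were 1.18 and -1.71. The last run joined genes of opposite direction. TraesCS1A02G004900 was on in AAC Starbuck and AAC Magnet, and TraesCS1A02G005200, 3 places further, in AAC Concord and AAC Tradition. The 2 genes between them were too low to be tested, with TraesCS1A02G005000 at 0.889 to 23.5 and TraesCS1A02G005100 at 0 to 12.4. Genes of nearby identifiers can share reads where they overlap or are alike in sequence, which was not tested.

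The genes beside the on-off genes were not used by the rule and were tested between the pairs in the same fit. The neighbours were the 5 tested genes before and the 5 after each on-off gene on its chromosome, other on-off genes and the blocks left out. This gave 274 genes, and the farthest of a gene's neighbours was 8 to 57 places away. Of the 274 neighbours, 53 were called between AAC Starbuck with AAC Magnet and AAC Concord with AAC Tradition, or 19.3% beside 5.83% of all genes tested. When a mean of 50 or more was required, the neighbours were drawn anew among the genes that passed. They are not a subset of the 274. Of these 262 neighbours, 16 were called, or 6.11% beside 3.52% of all genes. The libraries of the pairs did not overlap in 12.8% of the 274 neighbours and in 3.75% of all genes tested. Among the 53 called neighbours, 23 did not overlap, with no share over all called genes to set beside it. Of the 100 neighbours of genes on in AAC Starbuck and AAC Magnet, 23 were called, and 16 of these were higher in that pair. Of the 184 neighbours of genes on in AAC Concord and AAC Tradition, 34 were called, and 26 of these were higher in that pair. These counts share 10 neighbours, 4 of them called, which lie beside the run of opposite directions on 1A.

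The share of genes called between the pairs was highest next to the on-off genes. It was 29.8% among the 57 nearest tested neighbours, 20.7% at ranks 2 to 3, 15.8% at ranks 4 to 5 and 12.7% at ranks 6 to 10. Ranks count the tested genes from the on-off gene and are not gene places. A gene beside more than 1 on-off gene is counted at each of its ranks. Neighbours were also called within the pairs. Of the same 274 genes, 11.7% were called between AAC Starbuck and AAC Magnet and 17.2% between AAC Concord and AAC Tradition, beside 6.11% and 7.05% of all genes tested. These shares too were highest at the nearest rank. By the same ranks they were 17.5%, 11.7%, 9.65% and 13% between AAC Starbuck and AAC Magnet. Between AAC Concord and AAC Tradition they were 22.8%, 17.1%, 17.5% and 12.3%. Among the 53 neighbours called between the pairs, 12 were also called between AAC Starbuck and AAC Magnet, 22 between AAC Concord and AAC Tradition, and 22 in neither. These counts have no share over all called genes beside them, so they describe the 53 genes only.

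**Figure D3:**
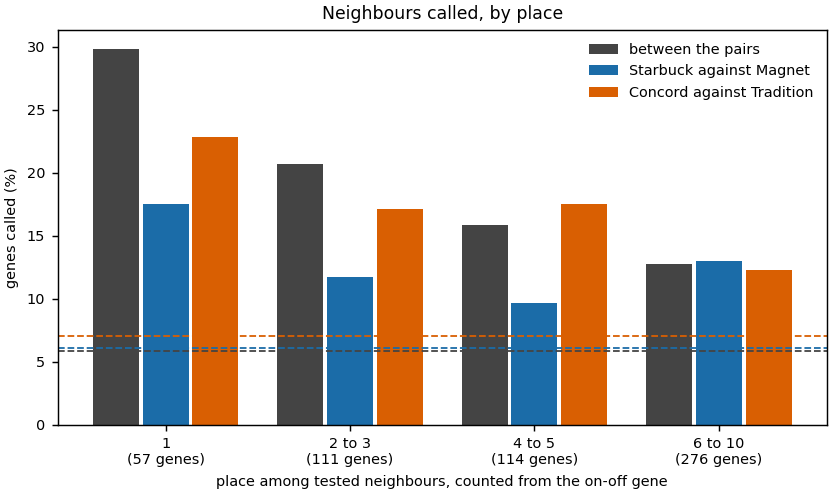
Percentage of tested neighbours called by limma, for the contrast between the pairs and for each contrast within a pair. Neighbours are grouped by rank, which is their place among the tested genes counted from the on-off gene. Dashed lines give the percentage of all genes tested. Between the pairs the share falls from 29.8% at the nearest rank to 12.7% at ranks 6 to 10, against 5.83% of all genes. The nearest rank is also the highest within the pairs, at 17.5% for AAC Starbuck against AAC Magnet and 22.8% for AAC Concord against AAC Tradition.

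The called neighbours were unevenly spread, since 9 on-off genes had none among their neighbours and 12 had 3 or more. The loci described here were chosen after their values were seen. Beside TraesCS3A02G522490 the 4 nearest tested genes were all higher in AAC Starbuck and AAC Magnet. TraesCS3A02G522400 was at 57.7, 52.9 and 38.3 in AAC Starbuck, at 31.4, 13.1 and 4.44 in AAC Magnet and at 0 in all 6 other libraries. It missed the rule for on-off genes by replicate 3 of AAC Magnet. TraesCS3A02G522300 was at 12.5 to 49.8 in that pair and was above 0 in 2 of the other libraries, at 0.938 and 2.21. TraesCS3A02G522500 and TraesCS3A02G522700 were also higher, with log2 fold changes of 3.38 and 2.83 (limma's adjusted p = 0.00056 and 0.0078), but were above 0 in all AAC Tradition libraries, at 17.7 to 33.8 and 3.32 to 19.8.

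Beside TraesCS6B02G242200 the 4 called genes were higher in AAC Concord and AAC Tradition. TraesCS6B02G242100 was at 0 in all 6 libraries of AAC Starbuck and AAC Magnet and at 3.75 to 14.0 in the others. TraesCS6B02G242300 averaged 5.39 in AAC Starbuck and AAC Magnet against 70.2 to 108 in AAC Concord and 42.6 to 83.3 in AAC Tradition, a log2 fold change of -3.83 for the first pair minus the second (standard error 0.37, limma's adjusted p = 5.4e-05). TraesCS6B02G242400, next to it, was at 0 to 4.78 in the first pair and at 25.8 to 43.1 in the second. The last, TraesCS6B02G242500, was low in AAC Starbuck alone, at 2.39 to 14.8, with 38.2 to 52.5 in AAC Magnet and 32.2 to 49.6 in the other pair.

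Neighbours could also follow a single variety. Beside TraesCS1D02G029000, TraesCS1D02G028800 was at 42.2, 45.7 and 45.4 in AAC Tradition and at 0.939, 0.825 and 7.98 in AAC Concord, and at 0 in the other pair. On its other side TraesCS1D02G029100 was high in AAC Concord alone, at 106, 66.8 and 99.2, against 4.97 to 13.6 in AAC Tradition, 3.14 to 13.3 in AAC Magnet and 0 in AAC Starbuck. Both were called as higher in AAC Concord and AAC Tradition, with opposite varieties leading. Beside TraesCS2A02G361700, TraesCS2A02G361600 was at 30.0, 18.2 and 24.0 in AAC Concord, at 1.24, 10.9 and 5.53 in AAC Tradition and at 0 in the other 6 libraries, in the same order of varieties as the on-off gene itself. Beside TraesCS7B02G496900, which had the most called neighbours with 6 of 10, TraesCS7B02G493000, 39 places before it, was at 102, 85.7 and 96.4 in AAC Magnet and at 0 in the other 9 libraries. Of those 10 neighbours, 7 were called between AAC Starbuck and AAC Magnet.

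TraesCS4A02G447600 had 4 called neighbours, of which TraesCS4A02G447500, 1 place before it, was at 88.4 to 187 in AAC Starbuck and AAC Magnet, at 33.8 to 38.4 in AAC Tradition and at 0.825 to 2.66 in AAC Concord. TraesCS4A02G447900, 3 places after it, went the other way, at 0 to 3.70 in AAC Starbuck and AAC Magnet and at 12.4 to 33.1 in the other pair. TraesCS1A02G440300, TraesCS2D02G103300, TraesCS3A02G150500 and TraesCS3D02G443500 had 0 called genes among their 10 neighbours. TraesCS4B02G005000 also had 0 between the pairs, whereas 7 of its 10 neighbours were called between AAC Starbuck and AAC Magnet. Some uncalled genes missed by the fold limit alone. Just before TraesCS1A02G440300, TraesCS1A02G440200 and TraesCS1A02G439800 had log2 fold changes of 0.95 and 0.92 (limma's adjusted p = 3.9e-05 and 0.0057). After it, TraesCS1A02G441500 went the other way, at -0.68 (limma's adjusted p = 0.022).

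**Figure D4:**
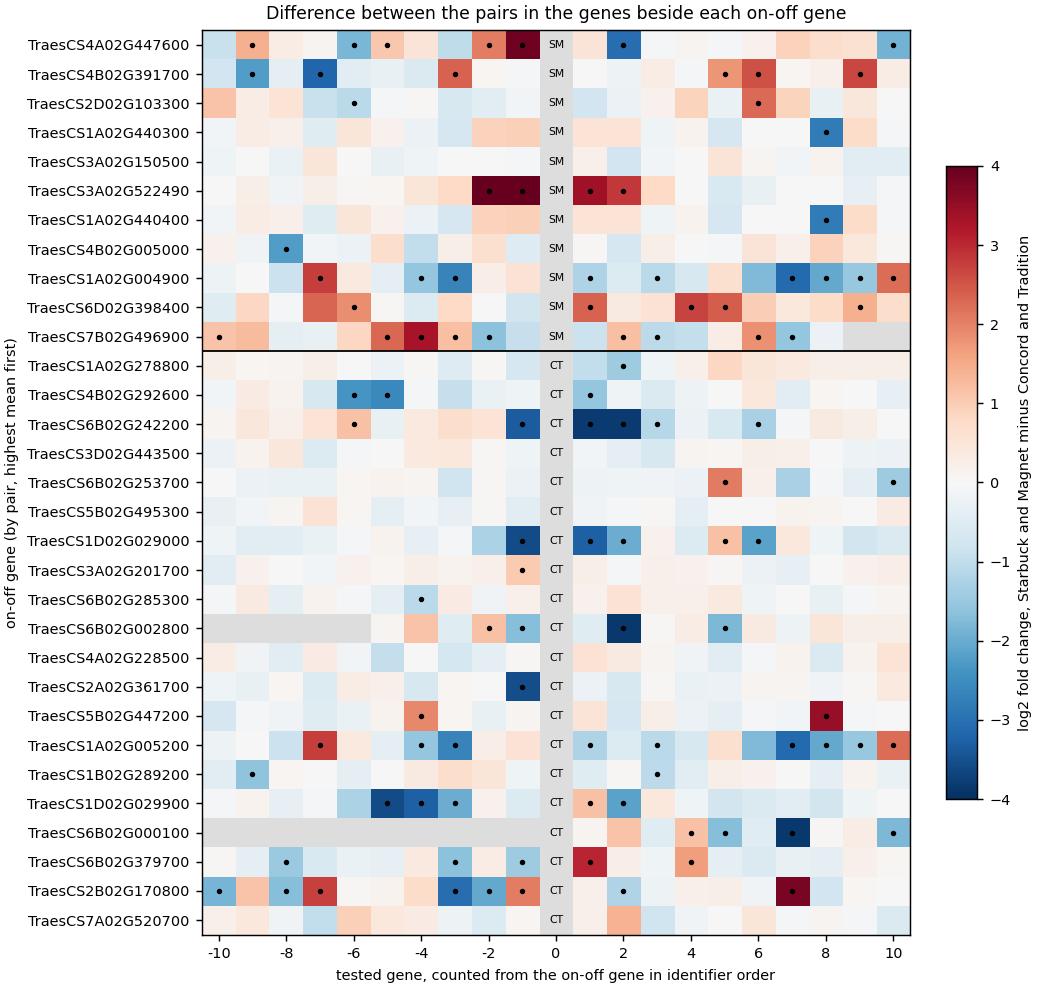
Log2 fold change between the pairs (AAC Starbuck and AAC Magnet minus AAC Concord and AAC Tradition) in the 10 tested genes before and after each on-off gene, in identifier order. The on-off gene sits in the centre column, marked SM or CT for the pair in which it is on. Black dots mark genes called by limma and grey cells have no tested gene. Colours are limited to -4 and 4. The rows of TraesCS1A02G004900, TraesCS1A02G005200 and TraesCS7B02G496900 hold 9 calls each (the 1A rows show the same genes), and that of TraesCS2B02G170800 holds 8. None stands in the rows of TraesCS3A02G150500, TraesCS3D02G443500, TraesCS4A02G228500, TraesCS5B02G495300 and TraesCS7A02G520700.

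The study lists 39 genes for cuticular wax synthesis, and 0 of them were on-off genes, beside 31 of the 107411 genes in the deposited table. Among the 39, TraesCS2B02G006400 and TraesCS2D02G015800 are listed only as other, with no named wax enzyme. Every on-off gene passes the filter for testing, which only 11 of the 39 passed, so the others could not be members. Of the 11 that could be tested, 1 was called between the pairs, beside 5.83% of all genes tested. This was TraesCS6B02G255100, the copy on 6B of the TaCER1-6 homologs of the alkane-forming pathway. It was at 18.5, 52.6 and 49.8 in AAC Starbuck, at 51.1, 57.1 and 41.6 in AAC Magnet, at 9.15, 4.82 and 3.46 in AAC Concord and at 12.1, 16.5 and 18.3 in AAC Tradition. All 6 libraries of AAC Starbuck and AAC Magnet were above the other 6, though replicate 1 of AAC Starbuck was close to replicate 3 of AAC Tradition (log2 fold change 2.09, standard error 0.28, limma's adjusted p = 0.00063). The gene is also a neighbour of TraesCS6B02G253700, 14 places away, and went in the opposite direction to that on-off gene. The other 10 wax genes tested, of TaFAR4, TaCER1-1 and DKP, were not called, with limma's adjusted p values from 0.21 to 0.92. This does not show equal levels, since standard errors ran from 0.60 to 0.95 in the DKP genes. Their log2 fold changes ran from -1.71 in TraesCS2B02G006300 to 1.15 in TraesCS2D02G015700.

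Pairing the 4 varieties by release year was 1 of 3 ways to split them into pairs. Under the same limits, 34 genes were on in one and off in the other of AAC Starbuck with AAC Tradition and AAC Concord with AAC Magnet, and 18 of AAC Starbuck with AAC Concord and AAC Magnet with AAC Tradition. The release pairs, with 31, stood between these counts. No gene can belong to more than 1 of these sets. Before genes without a chromosome and the blocks were left out, 43 genes met the limits for the release pairs, of which 5 had no chromosome and 7 lay in the blocks. Of the 7, 5 were in the block on chromosome 6B, with 4 on in AAC Starbuck and AAC Magnet, and 2 were in the block on chromosome 3D.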

How the data were processed

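Flag leaf RNA of 12 libraries was analysed. As the authors describe, reads were trimmed with Trimmomatic and assigned with Salmon to the IWGSC RefSeq wheat reference, and DESeq2 was used for pairwise comparisons. The values, deposited by the authors as normalized counts, are treated as a signal without length correction. How they were scaled is not given in the sources used here. A supplement of the study heads the same values for the wax genes as TPM, but the columns sum to different totals, from 5077330 to 5902642, where TPM would sum to the same total in each, so they were not read as TPM. The value of 1 read was taken as the centre of the lowest cluster of values above 0 in a library. Values are not exact multiples of it, so count models were not run. Reads of a gene are its values divided by the value of 1 read and rounded. Read numbers, and the bounds and intervals built on them, are therefore estimates.

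Limma 3.58.1 in R 4.3.3 was fitted to log2(value + 1) with variety as the only term (8 residual degrees of freedom), after a test on simulated data. Other steps used Python 3.11.15. Alternatives were other limits, pseudocounts, filters, scalings, a trend, the replicate number as a block, other numbers of neighbours and each library left out. Named were, per direction, the 10 genes with the highest mean, those with within-pair calls, runs, and those nearest the limits; a few other members and neighbours were named after their values were seen. The members, lists and tests were chosen with earlier results of these data known.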

Additional observations from a re-analysis of the deposited data

How the results depend on the processing

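The number of on-off genes was 17 with a lower limit of 20 and 47 with a limit of 5, and within 1.5 times of 31 in the other 17 alternatives. Leaving out a library gave 31 to 35. The 5 calls between AAC Concord and AAC Tradition became 3 with a trend in limma's prior variance and 1 when a mean of 50 or more was required, where 2 of the 20 could be tested. Between AAC Starbuck and AAC Magnet, 0 calls became 1 with no limit on the fold change and 0 to 1 when libraries were left out, with 1 without replicate 3 of AAC Starbuck or replicate 1 of AAC Magnet. The 53 called neighbours became 31 with 2 and 85 with 10 on each side, and 89 with no limit on the fold change. With a mean of 50 or more required and neighbours drawn anew, 16 of 262 were called, beside 3.52% of all genes. With that mean required, 6 wax genes could be tested and 0 were called. The called wax gene, TraesCS6B02G255100, was not among them, since its pair means were 45.1 and 10.7. The number of called wax genes was 1 to 2 when libraries were left out, with 2 without replicate 3 of AAC Tradition. With the replicate block there were 5 calls between AAC Concord and AAC Tradition, 0 between AAC Starbuck and AAC Magnet, 52 among neighbours and 1 among wax genes. The numbers do not pair the libraries (correlations of residuals at the same number -0.14 to 0.21, median 0.029), and 7 of 12 libraries correlated best with their own number. Genes at 10 to 20 normalized counts rest on few reads per library, which limits their precision.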
